A study of Mus musculus and Rattus norvegicus with 12 samples.

Results

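The mitochondrial ribosomal proteins were followed in the heart of mice with a Jmjd4 knockout and in cultured rat heart cells given an siRNA against Jmjd4, which encodes a JmjC-domain oxygenase. Members were the symbols made of Mrpl (large subunit) or Mrps (small subunit), a number and at most 1 further letter, so the choice used names and no measured value. In all, 79 symbols qualified, among 82996 symbol entries of the mouse and rat count tables together, and 76 of them stood in both. The mouse table held 77 members (48 large, 29 small), and every one passed the filter on low counts. The rat table held 78 (48 large, 30 small), of which 77 passed. The remaining one, Mrps21l, had no count in any rat library. Mrpl30 was listed in the mouse alone, and Mrpl58 and Mrps21l in the rat alone. Mrpl58, a peptidyl-tRNA hydrolase of the large subunit, is listed in the mouse table under its older symbol Ict1.

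Mitochondria carry their own ribosome, whose RNAs come from the mitochondrial genome and whose proteins are all encoded in the nucleus and imported. It makes the few core subunits of the respiratory chain and of ATP synthase that the mitochondrial genome encodes, and heart muscle depends on that chain for most of its ATP. Some of its proteins have counterparts in bacterial ribosomes, such as Mrpl12 of the stalk that recruits translation factors or Mrps12 of the decoding centre, while others, such as Mrpl37, Mrpl39, Mrpl42, Mrps25, Mrps31 and Mrps35, are specific to mitochondria. Symbols do not follow the structure throughout. Mrps18a and Mrps30 are named for the small subunit but lie in the large one, and Mrps36 is known as a component of the oxoglutarate dehydrogenase complex. The subunits below are those of the symbols.

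Heart apex was taken 14 days after tamoxifen from 3 mice with floxed Jmjd4 alleles and no Cre (Jmjd4 f/f, called flox) and from 3 that also carried MCM+, a tamoxifen-inducible Cre driven by the cardiomyocyte promoter Myh6 (called cKO). Since only the cKO mice carried Cre, effects of Cre and of the deletion cannot be told apart, and the mice's ages are not stated in the labels. Neonatal rat ventricular cardiomyocytes (NRVCs) from 1-day-old wild-type Sprague-Dawley rats, depleted of fast-attaching cells by pre-plating, received a control siRNA (siNC, 3 libraries) or one against Jmjd4 (siJmjd4, 3 libraries) for 48 h. Whether separate isolations gave the NRVC libraries is not labelled, so p-values there measure only the spread between these samples.

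The 12 libraries held 57174654 to 82187009 counts each, of which the members took 0.222% to 0.513%. Levels are given below as CPM, counts normalised to a library size scaled by edgeR's TMM factor. Jmjd4 itself was at 19, 8.04 and 16.9 CPM in flox replicates 1 to 3 and at 8.95, 4.92 and 9.63 CPM in the cKO replicates. In the rat it was at 3.46, 4.4 and 0.982 CPM with siNC while the libraries labelled siJmjd4 had 3.58, 3.43 and 3.52 CPM, so a lower level was not seen there. One control library in each system stood apart, flox replicate 3 and siNC replicate 3. Both were rich in short transcripts, with a Spearman rho across genes of -0.68 and -0.49 between transcript length and the ratio of that library to its group's others, and flox replicate 3 had 41.7% of its counts on the mitochondrial genome against 14.2% to 24.1% in the other 5 hearts. A weaker trend of the same sign was present in cKO replicate 2 (rho -0.58) and siJmjd4 replicate 1 (rho -0.38). All 6 fibroblast, 6 endothelial and 6 macrophage markers were detected in the heart apex, so the tissue was not cardiomyocytes alone. In the NRVCs the fibroblast collagen Col1a1 reached 21680 to 25970 CPM.

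Promoter windows from RefSeq (GRCm38.p6, 250 bases before to 50 after the annotated start) were found for 68 of the 77 mouse members. Each window was searched on both strands for 1 form of the motif of 3 factors known for nuclear genes of mitochondrial proteins. The NRF1 letters GCGCATGCG occurred in 7 of 68 members (10.3%), against 1.95% of 27025 genes. The GABP letters ACCGGAAGT occurred in 4 members (5.88%, against 1.21% of all genes), and the YY1 letters AAGATGGCG in 8 (11.8%, against 1.64%). No member had 2 of the 3 motifs, so no matches of different motifs overlapped in a member. By subunit, NRF1 letters stood in 6 of 42 large-subunit and 1 of 26 small-subunit windows, GABP letters in 4 and 0, and YY1 letters in 4 and 4. A match describes the letters and shows no binding, and no binding was measured. The 4 windows below, each to 30 bases after the start, 5′ to 3′ and with the matched letters in capitals, show 1 or 2 examples of each motif. They include Mrpl39, the member with the smallest p in the mouse, and Mrpl51, whose fold changes had opposite signs in mouse and rat. The Mrpl39 window (chr16:84735215-84735494, minus strand) and the Mrpl9 window (chr3:94443086-94443365, plus strand) each hold NRF1 letters on both strands, overlapping by all but 1 base. The Mrpl51 window (chr6:125191950-125192229, plus strand) holds GABP letters. The Mrps11 window (chr7:78782881-78783160, plus strand) holds the reverse complement of the YY1 letters and lies within the annotated span of Mrpl46, a member on the opposite strand whose exons overlap those of Mrps11 by 173 bases.
Mrpl39: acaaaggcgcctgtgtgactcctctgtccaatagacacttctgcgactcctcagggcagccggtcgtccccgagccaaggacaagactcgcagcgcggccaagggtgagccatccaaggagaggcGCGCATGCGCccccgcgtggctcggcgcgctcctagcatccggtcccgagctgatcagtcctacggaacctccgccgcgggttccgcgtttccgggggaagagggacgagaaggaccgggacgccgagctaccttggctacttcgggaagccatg
Mrpl9: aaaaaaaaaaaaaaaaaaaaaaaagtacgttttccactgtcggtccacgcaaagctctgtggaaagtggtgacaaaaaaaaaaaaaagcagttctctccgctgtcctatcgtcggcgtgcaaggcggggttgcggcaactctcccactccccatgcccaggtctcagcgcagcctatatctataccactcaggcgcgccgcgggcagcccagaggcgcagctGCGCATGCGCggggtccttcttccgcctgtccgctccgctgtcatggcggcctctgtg
Mrpl51: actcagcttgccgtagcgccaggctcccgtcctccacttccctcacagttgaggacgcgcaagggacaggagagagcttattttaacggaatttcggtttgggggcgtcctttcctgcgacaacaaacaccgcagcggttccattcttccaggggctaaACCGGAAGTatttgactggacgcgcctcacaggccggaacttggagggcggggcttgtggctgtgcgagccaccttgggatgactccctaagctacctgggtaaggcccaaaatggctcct
Mrps11: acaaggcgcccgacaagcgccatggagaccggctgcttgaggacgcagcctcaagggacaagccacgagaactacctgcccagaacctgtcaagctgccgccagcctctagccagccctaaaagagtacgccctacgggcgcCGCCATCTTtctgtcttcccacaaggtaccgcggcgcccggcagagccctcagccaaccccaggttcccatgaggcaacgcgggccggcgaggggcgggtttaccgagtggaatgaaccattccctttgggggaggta

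In the mouse heart every member had a lower fitted level in cKO than in flox, but no member passed the test over all genes. All 77 log2 fold changes were below 0, with a median of -1.17 and a range of -2.33 to -0.50, beside a median of 0 over all 18094 genes tested, of which 50% were below 0. The call, an adjusted p under 0.05 in edgeR's quasi-likelihood test with Benjamini-Hochberg adjustment, was met by 0 of 77 members and by 0.508% of all genes (0.138% called lower). At an unadjusted p under 0.05, 13 members were lower, against 6.79% of all genes. Other tools called more, 4 members lower by DESeq2's Wald test (5.19%, against 4.38% of all genes) and 19 by limma voom with sample weights (24.7%, against 9.32%). The 3 cKO values lay below all 3 flox values for 21 members, against 11.2% of all genes. In bulk tissue, fewer cells of a type and less RNA per cell cannot be told apart.

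**Figure D1:**
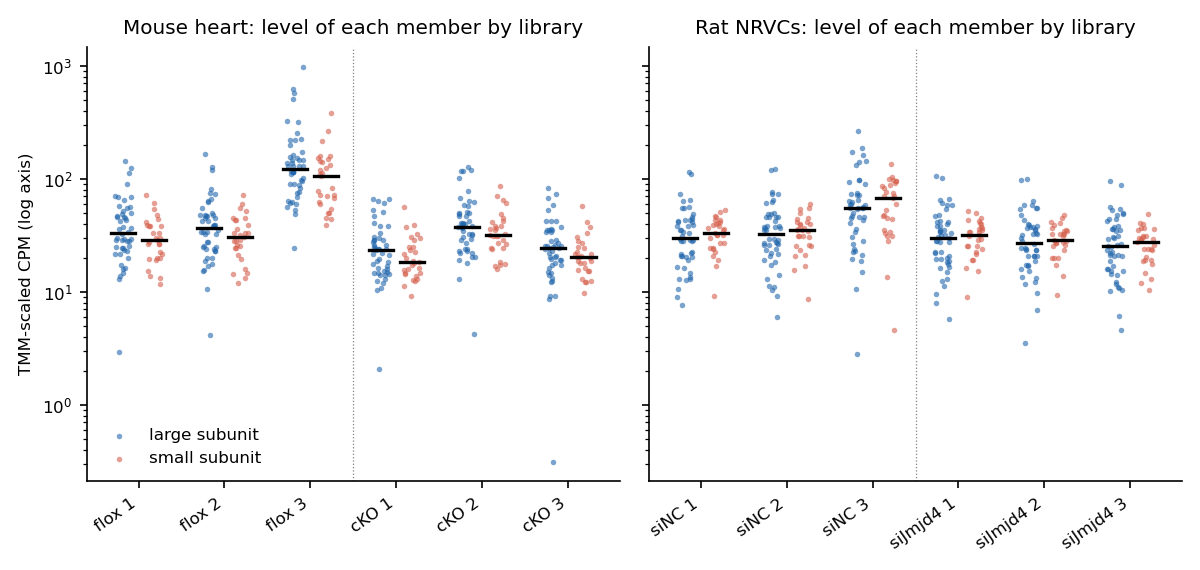
Level of each tested member in each library as TMM-scaled CPM on a log axis, with large-subunit members in blue, small-subunit members in red and black bars at the median of each subunit. Each mouse member is highest in flox replicate 3, and siNC replicate 3 has the highest median of the NRVC libraries (55.41 CPM over all members).

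One control heart stood above all others. Summed over the members, flox replicates 1, 2 and 3 stood at 2922, 3015 and 11620 CPM, and cKO replicates 1, 2 and 3 at 1904, 3213 and 1982 CPM. The TMM factor of flox replicate 3 was 0.4412, against 1.057 and 1.064 in the other flox hearts, which raised its CPM. As shares of all counts the members took 0.309%, 0.321% and 0.513% in flox and 0.25%, 0.365% and 0.267% in cKO. That library thus stood highest by a smaller margin before TMM scaling. In scaled CPM flox replicate 3 was the highest of the 6 libraries for all 77 members, while the first 2 flox hearts lay between the cKO hearts. Cytosolic ribosomal proteins, which also have short transcripts, behaved alike in that library, at 59000 CPM against 9652 and 10160 CPM in the other flox hearts and 9827 to 18710 CPM in cKO. Without flox replicate 3 the members' median was -0.30, beside 0.02 over all genes, with 67 of 77 below 0, against 48.7% of all genes. In that fit 2 members were called lower, 2.60% of them, against 2.93% of all genes, and none higher, against 4.26%. At an unadjusted p under 0.05, 12 members were lower, against 9.81% of all genes, and 21 were lower with no overlap, against 22.2%. Scaling to library totals alone gave the same median of -0.30, but there the median of all genes was 0.54, so the members stood further below other genes than the value shows.

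The members stood above other genes of like transcript length in flox replicate 3. The median transcript length was 1226 nt over the members and 2776 nt over all tested genes with a length. The members were split by length into 3 classes of 25 or 26. In the shortest class (405 to 995 nt), the median log2 ratio of flox replicate 3 to the mean of the other flox hearts was 2.34, against 1.64 for all genes in that length range. In the longest class (1764 to 7300 nt) it was 1.53, against -0.44. Without flox replicate 3 the median log2 fold changes of the shortest, middle and longest class were -0.24, -0.26 and -0.36. Genes of the same lengths had 0.23, 0.18 and 0.02, so in each class the members lay below genes of like length. Each library's trend on transcript length was also taken out as an offset, with all 6 hearts kept. The median was then -0.85 and 4 members were called lower (5.19%, against 2.99% of all genes), namely Mrpl37, Mrpl39, Mrpl42 and Mrps31. From the shortest to the longest class the medians were -0.52, -0.73 and -1.49, against -1.27, -1.06 and -1.12 uncorrected. The correction thus raised the 2 shorter classes and lowered the longest, so -0.85 does not hold evenly across lengths.

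**Figure D2:**
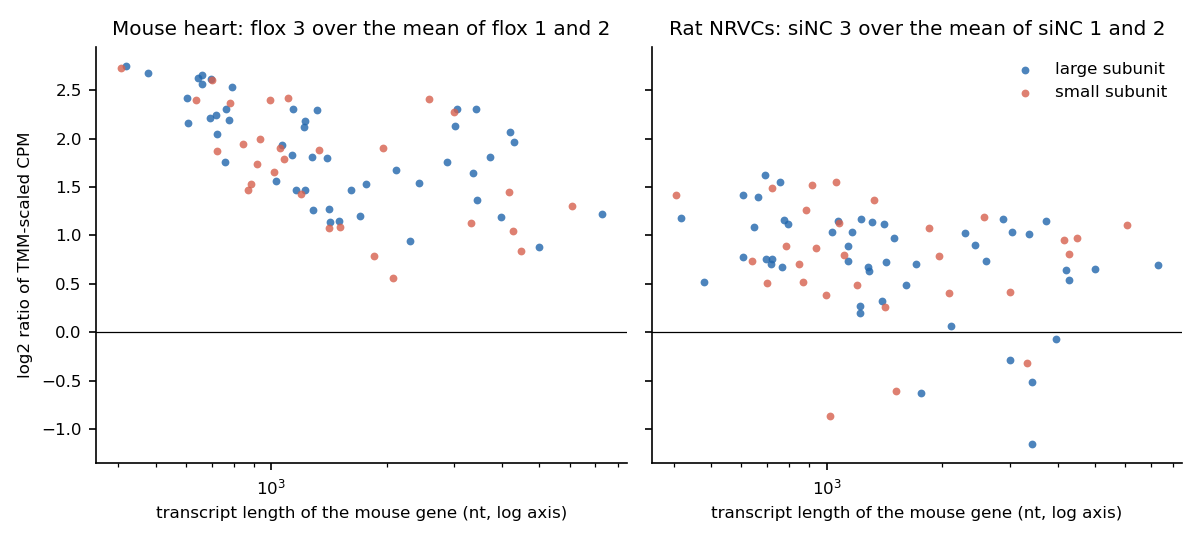
Log2 ratio of control replicate 3 to the mean of control replicates 1 and 2 for each member (TMM-scaled CPM), against the transcript length of the mouse gene on a log axis, with the mouse on the left and the rat on the right. All members lie above 0 in the mouse, with the highest ratios among the short transcripts, and the rat ratios are smaller and include members below 0.

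Leaving out cKO replicate 2 as well gave the largest number of calls. That library was the highest cKO heart in the summed level and, like flox replicate 3, rich in short transcripts, so its removal lowered the cKO mean. Between flox replicates 1 and 2 and cKO replicates 1 and 3, 41 of 77 members were called lower (53.2%, against 9.53% of 18804 genes) and none higher (0, against 9.54% of genes), with edgeR's quasi-likelihood test. These were 28 of 48 large-subunit and 13 of 29 small-subunit members. The median was -0.58, with 73 members below 0. Only 2 libraries remained in each group. Mrpl37 and Mrpl39 were called in all 5 of the settings that called any member, Mrpl42 in 4, and Mrps31 and Mrps35 in 3. These settings reuse the same hearts. The other settings, among them the edgeR fit of all hearts, called no member.

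**Figure D3:**
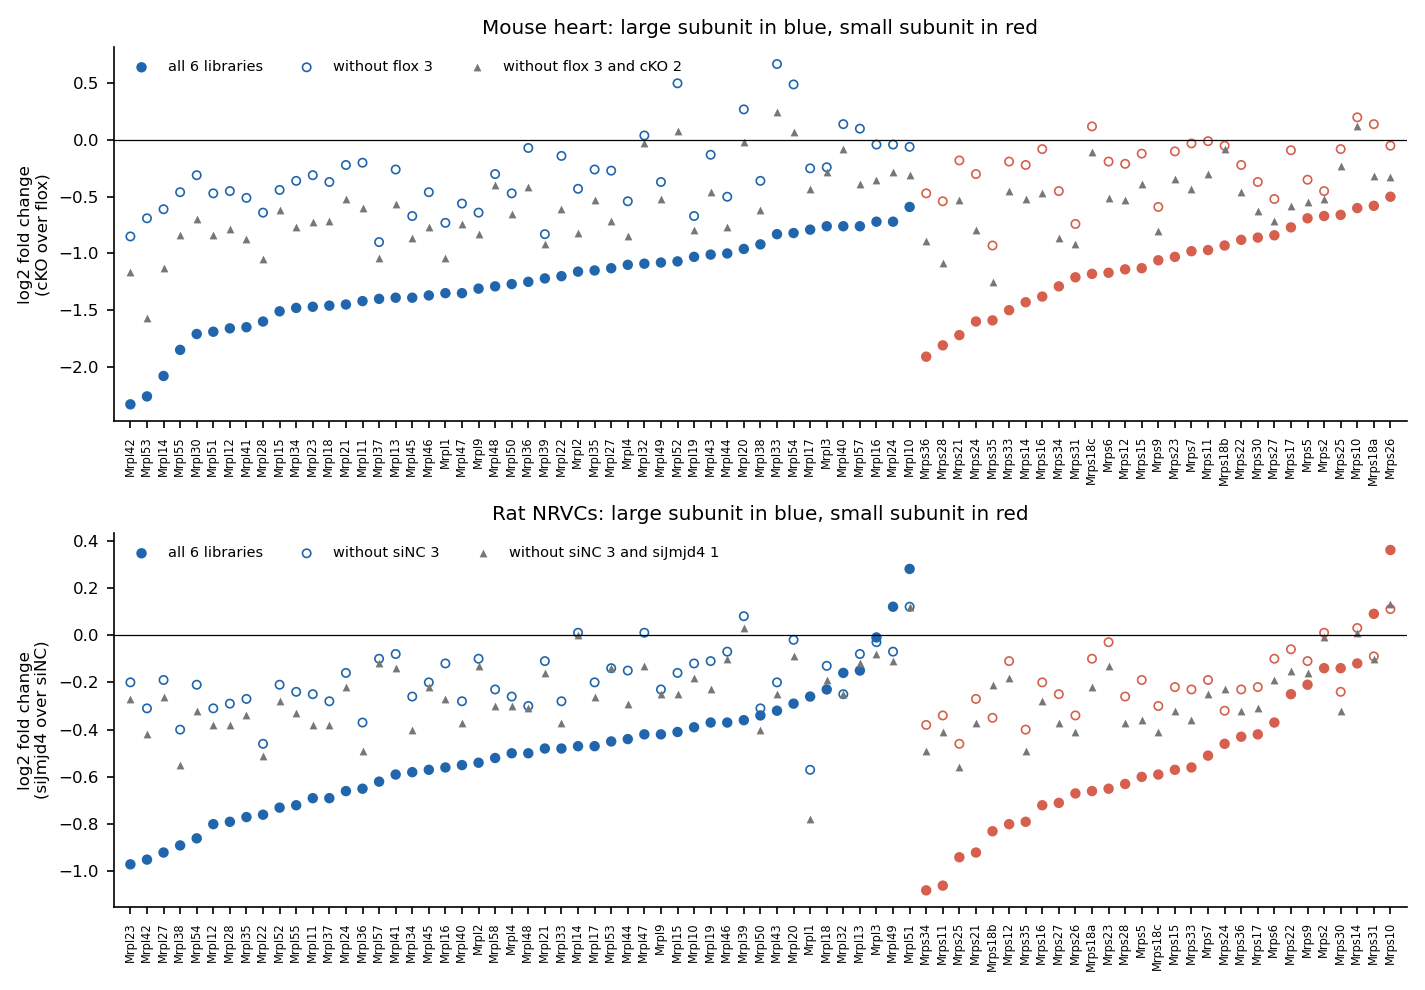
Log2 fold change of each tested member in the mouse (top) and rat (bottom), ordered within the large subunit (blue) and the small subunit (red), from all 6 libraries (filled circles), without control replicate 3 (open circles) and without 2 libraries (grey triangles). In the mouse the filled circles lie between -2.33 and -0.50, and the open circles between -0.93 and 0.67.

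Among large-subunit members, Mrpl39 had the smallest p in the mouse. This mitochondria-specific protein (gene on chromosome 16 from 84717576 to 84735742 of GRCm38, minus strand) was at 46.58, 46.51 and 90.03 CPM in flox replicates 1, 2 and 3 and at 23.87, 29.32 and 25.48 CPM in cKO (61.04 ± 25.11 and 26.22 ± 2.799, SD, n = 3). All cKO hearts lay below all flox hearts, and the first 2 flox hearts were nearly equal. Its log2 fold change was -1.22 (SE 0.37, edgeR quasi-likelihood adjusted p = 0.192), which became -0.83 (SE 0.19, adjusted p = 0.0458) when flox replicate 3 was left out. Mrpl37, also specific to mitochondria (chromosome 4 from 107055874 to 107066868, minus strand), was at 64.54, 65.75 and 145.3 CPM in flox and at 28.69, 40.7 and 35.03 CPM in cKO. Again the groups were apart, with a log2 fold change of -1.40 (SE 0.42, edgeR adjusted p = 0.193) and of -0.90 (SE 0.21, adjusted p = 0.0497) without flox replicate 3.

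Mrpl42 had the lowest fold change of all members and, per kilobase, the highest flox level. Flox replicates 1, 2 and 3 were at 144.9, 165.5 and 980.6 CPM and cKO at 66.1, 117.8 and 73.57 CPM. All cKO values were below the flox values, but flox replicate 3 carried most of the distance. The log2 fold change moved from -2.33 (SE 0.83, edgeR adjusted p = 0.257) to -0.85 (SE 0.29, adjusted p = 0.134) without it. Mrpl42 took 4.96%, 5.49% and 8.44% of the members' counts in flox and 3.47%, 3.67% and 3.71% in cKO, so its share was below every flox share in every cKO heart. Mrpl19, a protein with a bacterial counterpart, was at 28.12, 24.78 and 49.13 CPM in flox and at 14.66, 18.94 and 16.23 CPM in cKO, with no overlap and a log2 fold change of -1.03 (edgeR adjusted p = 0.244). Of its 5450 annotated exonic bases, 1962 overlap Gcfc2 on the opposite strand, and the strand setting of the counting is not given.

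Mrpl33, whose protein has a bacterial counterpart, went the other way once flox replicate 3 was left out. It was at 51.73, 48.23 and 322.8 CPM in flox and at 61.06, 117.7 and 58.67 CPM in cKO. Every cKO heart was above the first 2 flox hearts and below the third. The log2 fold change was -0.83 with all hearts and 0.67 (SE 0.34, edgeR adjusted p = 0.308) without flox replicate 3, and it was the 1 member that was higher without overlap there, against 23.2% of all genes. Part of its annotated exons, 261 bases, overlaps Gm43809 on the same strand, and how the counting treated such reads is not stated. Mrpl10 and Mrpl16, of the stalk base and of the core of the large subunit, had the highest fold changes of that subunit, at -0.59 and -0.72 on the log2 scale, and their groups overlapped. Mrpl53 rested on few counts, with 28 in cKO replicate 3, and its whole transcript overlaps Gm42688 on the same strand.

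In the small subunit, Mrps35 and Mrps31 had the smallest p in the mouse. Mrps35, a mitochondria-specific protein, was at 61.03, 55.46 and 159.5 CPM in flox and at 24.75, 42.02 and 24.58 CPM in cKO. The groups did not overlap, and its log2 fold change was -1.59 (SE 0.52, edgeR adjusted p = 0.221), or -0.93 (SE 0.28, adjusted p = 0.101) without flox replicate 3. In the 4 hearts left without cKO replicate 2 as well, it had the smallest adjusted p of all members, with a log2 fold change of -1.25 (SE 0.12, adjusted p = 0.00374). Mrps31 was at 33.22, 33.2 and 71.49 CPM in flox and at 19.94, 24.26 and 15.27 CPM in cKO, again with no overlap (log2 fold change -1.21, SE 0.42, edgeR adjusted p = 0.244). Mrps36, the oxoglutarate dehydrogenase component, had the lowest fold change of the subunit (-1.91), but its flox values of 38.16, 32.98 and 218 CPM overlapped the cKO values of 17.3, 38.44 and 21.39 CPM.

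**Figure D4:**
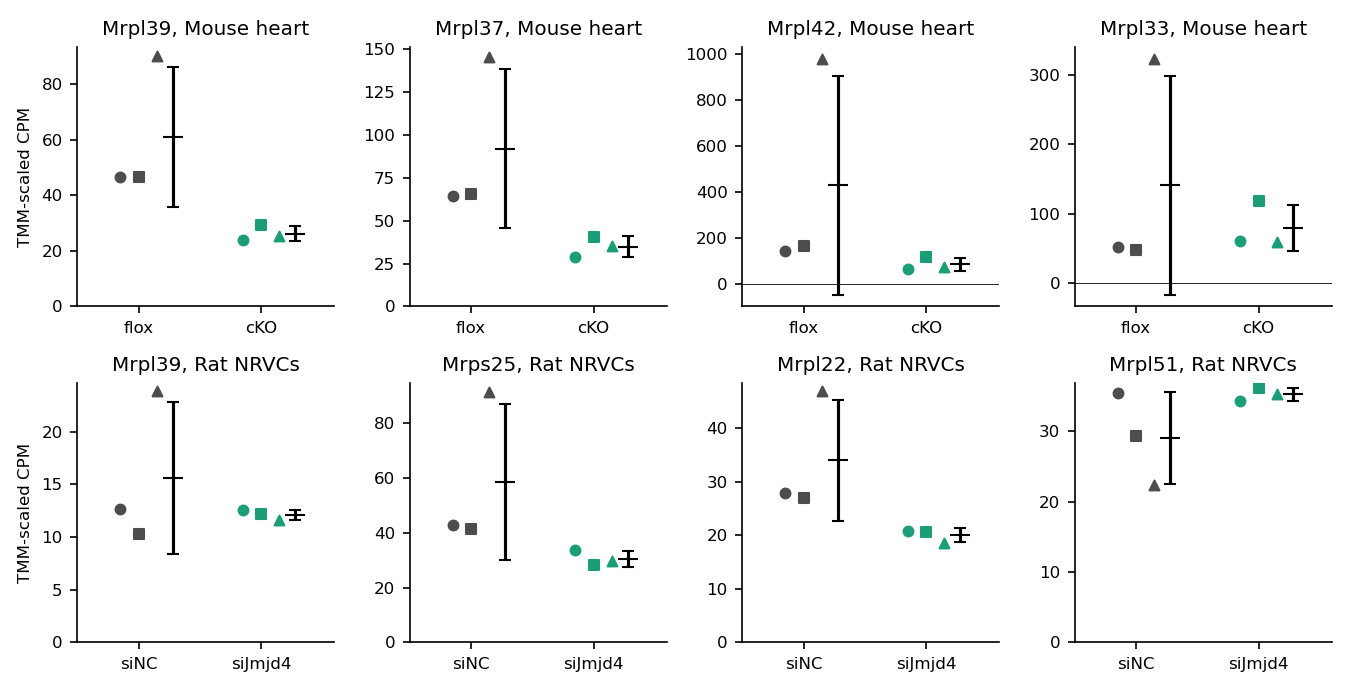
TMM-scaled CPM of 8 gene and system pairs by group, with replicates 1, 2 and 3 as circle, square and triangle and the mean ± SD (n = 3) beside them, on linear axes. The control triangle is the highest point of its panel in all but Mrpl51 of the rat, and the cKO values of Mrpl39 and Mrpl37 lie below all flox values.

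The large subunit stood lower than the small one in the mouse under each setting compared, by a small margin. The medians were -1.26 and -1.06 with all hearts, -0.36 and -0.19 without flox replicate 3, -0.67 and -0.52 without cKO replicate 2 as well, and -0.91 and -0.76 with the length correction. The summed level of the large over that of the small subunit was 2.21, 2.19 and 2.5 in flox replicates 1, 2 and 3 and 2.03, 2.08 and 2.06 in cKO. The ratio was thus lower in every cKO heart than in any flox heart, though such sums weigh the most abundant members most. When each library was scaled to its own sum of member counts, a setting chosen after the data were seen, the medians were -0.02 and 0.19 and no member was called (0.0166% of all genes were, all higher). Shares of the members' counts were lower in every cKO heart than in any flox heart for 6 members (Mrpl12, Mrpl28, Mrpl42, Mrpl51, Mrpl55 and Mrps35, against 1.92% of all genes on that scale) and higher for 17 (33.0% of all genes). Shares of a sum do not move independently of each other.

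Other genes of mitochondrial translation lay below 0 with the members in the mouse, though none was called with all 6 hearts. All 14 translation factors and all 20 aminoacyl-tRNA synthetases and amidotransferase subunits had fold changes below 0, with medians of -0.94 and -0.60 on the log2 scale. So did 20 of 21 genes of ribosome assembly and ribosomal RNA modification (median -0.76) and 13 of 14 of mitochondrial transcription and RNA processing (-0.81). Without flox replicate 3 these 4 lists had medians of -0.48, -0.51, -0.48 and -0.48, and 3 of 14, 3 of 20, 1 of 21 and 1 of 14 genes were called lower, against 2.93% of all genes. Taco1, a translational activator of cytochrome oxidase subunit I, was at 45.74, 45.18 and 67.02 CPM in flox and at 20.84, 20.04 and 21.74 CPM in cKO (log2 fold change -1.12 without flox replicate 3, edgeR adjusted p = 0.0163). Ptcd3, a small-subunit protein outside the naming pattern, had -0.93 in that fit (adjusted p = 0.0298), and the ribosomal RNA methyltransferase Mrm1 had -1.01 (adjusted p = 0.0259).

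RNAs of the mitochondrial genome had fold changes below 0 too. Its 13 protein-coding RNAs were all below 0, with a median of -1.74, or -0.71 without flox replicate 3, and none was called in either fit. The RNA of the large mitochondrial ribosomal subunit, Mt-rnr2, was at 3884, 3502 and 20460 CPM in flox and at 1516, 1851 and 1110 CPM in cKO. Its log2 fold change without flox replicate 3 was -1.30 (edgeR adjusted p = 0.0437), and that of the small-subunit RNA Mt-rnr1 was -1.03 (adjusted p = 0.166). Of 9 regulators of mitochondrial biogenesis, 6 were below 0 with all hearts (median -0.11), and none was called, against 0.508% of all genes. Without flox replicate 3 their median was -0.29, with 1 called lower and 1 called higher, against 2.93% and 4.26% of all genes. Ppargc1a, the coactivator known for driving mitochondrial biogenesis, was the one called lower. It was at 127.3, 129.8 and 50.73 CPM in flox and at 36.03, 21.65 and 35.66 CPM in cKO (log2 fold change -2.04 without flox replicate 3, edgeR adjusted p = 0.0108). Unlike the members it was lowest, not highest, in flox replicate 3 among the flox hearts, and its groups did not overlap. All genes of 1764 to 7300 nt also had a median log2 ratio of -0.44 in that library. Whether transcript length bears on the values of Ppargc1a was not tested. In contrast, the cytosolic ribosomal proteins turned from 76 of 77 below 0 (median -0.93) to 3 of 77 (median 0.48) without that library, with 2 called higher.

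Fibroblast and macrophage markers had higher summed levels in cKO than in flox, though none of them was called with all hearts. Without flox replicate 3, 2 of 6 fibroblast and 4 of 6 macrophage markers were called higher, against 4.26% of all genes. All 6 fibroblast markers had fold changes above 0, and their summed level was 704.4 to 776.1 CPM in flox and 1562 to 2920 CPM in cKO. All 6 macrophage markers did too, with sums of 159.8 to 242.1 CPM and 333.6 to 431.2 CPM. Endothelial sums overlapped, at 407.1 to 1027 CPM in flox and 684.8 to 774.5 CPM in cKO, with 4 of 6 markers below 0. Smooth muscle and pericyte sums overlapped too, at 877.9 to 1246 CPM and 823 to 894.2 CPM, with 2 of 6 below 0. The summed cardiomyocyte markers were at 45200 to 48370 CPM in flox and 31260 to 39680 CPM in cKO, but single markers went both ways. Of 10, 7 were below 0 with all hearts and 5 without flox replicate 3. In the latter fit Pln was called lower and Myh7 higher, against 2.93% and 4.26% of all genes. No marker of any list was at 0 in all hearts. Their part in the members' lower level was not tested.

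In the NRVCs most members had fold changes below 0 in the libraries labelled siJmjd4, of a smaller size, and again none passed the test. Of 77 tested members 73 had a log2 fold change below 0, with a median of -0.54 (large -0.50, small -0.59) and a range of -1.08 to 0.36, beside 0.01 over all 15497 genes, of which 49.7% were below 0. No member was called by edgeR's quasi-likelihood test, against 0.00645% of all genes, and 6 were lower at an unadjusted p under 0.05, against 2.92%. DESeq2's Wald test called none and limma voom with sample weights 2 lower, Mrpl22 and Mrps25 (2.60%, against 1.12% of all genes). The values of the libraries labelled siJmjd4 lay below all siNC values for 42 members, against 17.8% of all genes. The 4 members above 0 were Mrps10, Mrpl51, Mrpl49 and Mrps31, and each had its lowest level of all 6 libraries in siNC replicate 3.

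As in the mouse, the third control library was the highest for most members. Summed levels were 2656, 2801 and 5040 CPM in siNC replicates 1, 2 and 3 and 2528, 2402 and 2195 CPM in the libraries labelled siJmjd4. The sums of the 2 groups did not overlap with or without siNC replicate 3, but that library was the highest for 67 of 77 members. Cytosolic ribosomal proteins summed to 118600 CPM in it and to 52070 and 55350 CPM in the other siNC libraries, against 44730 to 47890 CPM in those labelled siJmjd4. Without it the members' median was -0.20 (large -0.20, small -0.22), beside 0 over all genes, with 70 below 0, against 49.8%. Still no member was called by edgeR (0.0823% of all genes were called lower), while 23 were lower at an unadjusted p under 0.05, against 8.09%, and 45 did not overlap, against 19.9%. The summed level of the large over that of the small subunit was 1.76, 1.82 and 1.73 with siNC. It was 1.8, 1.8 and 1.83 in the libraries labelled siJmjd4, so the groups overlapped, unlike in the mouse.

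Members and other short genes had closer values in the rat. In the shortest length class of the members the median log2 fold change without siNC replicate 3 was -0.22, beside -0.20 for all genes of that length, and in the middle class -0.15 beside -0.14. They parted in the longest class, at -0.20 beside 0.05. Rat lengths were taken from mouse genes with the same symbol. With the length correction and all 6 libraries the median was -0.17, with 58 members below 0 and none called. The shortest, middle and longest class then had medians of -0.06, -0.12 and -0.54. Without siNC replicate 3 and siJmjd4 replicate 1, 17 members were called lower (22.1%, against 5.18% of 15620 genes) and none higher (against 10.6%), 8 large and 9 small. In that fit 47 of 72 cytosolic ribosomal proteins were called lower as well.

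Mrps25 and Mrpl22 were the 2 members called in both of the rat settings that called any. The other rat settings, among them the edgeR fit of all libraries, called no member. Mrps25, a mitochondria-specific small-subunit protein, was at 42.95, 41.37 and 91.5 CPM with siNC and stood at 33.87, 28.26 and 29.72 CPM in those labelled siJmjd4. Its log2 fold change was -0.94 (SE 0.34, edgeR adjusted p = 0.379), or -0.46 (SE 0.10, adjusted p = 0.0645) without siNC replicate 3. Mrpl22, which lines the exit tunnel of the large subunit, was at 27.92, 27.01 and 46.97 CPM and at 20.87, 20.62 and 18.52 CPM. Neither gene had any overlap between the groups, and Mrpl22 gave -0.76 (SE 0.26, edgeR adjusted p = 0.379), or -0.46 (SE 0.11, adjusted p = 0.0686) without siNC replicate 3. Mrps34 had the lowest fold change of all rat members, at 43.28, 49.66 and 134.4 CPM with siNC and 39.88, 36.8 and 30.57 CPM in those labelled siJmjd4 (log2 fold change -1.08, or -0.38 without siNC replicate 3). Mrps11 (-1.06) and Mrpl23 (-0.97) followed.

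Of the wider pathway, 10 of 14 translation factors (median -0.15) and 10 of 20 tRNA synthetases (0.01) were below 0 in the rat, and no gene of these lists was called. Without siNC replicate 3 these 2 medians were -0.1 and -0.01. All 72 cytosolic ribosomal proteins were below 0 with a median of -0.68, or 69 with a median of -0.21 without siNC replicate 3. Tufm, the mitochondrial elongation factor Tu, was at 116.4, 122.2 and 196.1 CPM with siNC and at 109.5, 94.23 and 91.02 CPM in those labelled siJmjd4 (log2 fold change -0.56, edgeR adjusted p = 0.379). Among the 9 regulators of mitochondrial biogenesis 3 were below 0, with a median of 0.32, or 0.12 without siNC replicate 3. Ppargc1a was at 3.264, 2.547 and 2.133 CPM with siNC and at 3.317, 6.406 and 5.893 CPM in those labelled siJmjd4. This is the opposite order to that in the heart, with an edgeR adjusted p of 0.379. Of the 9 cardiomyocyte markers tested, 8 were below 0, with sums of 13350 to 20110 CPM with siNC and 11210 to 13300 CPM in those labelled siJmjd4. Without siNC replicate 3 the siNC sums reached only 13770 CPM. The part of these markers in the members' values was not tested.

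**Figure D5:**
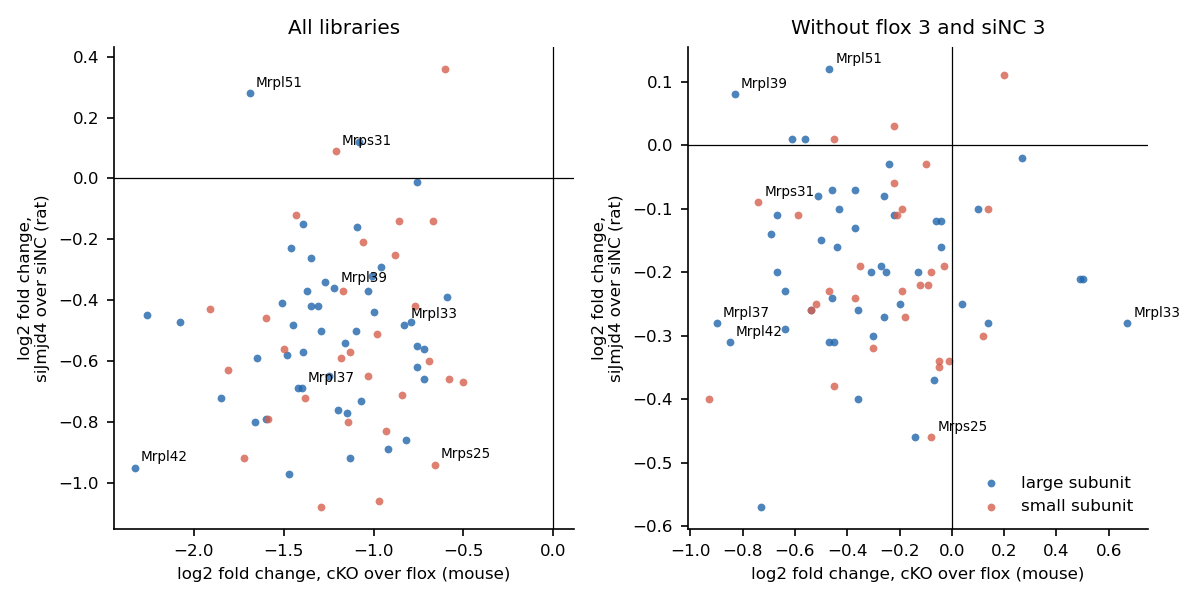
Log2 fold change of the 76 members in both tables, mouse on the x axis and rat on the y axis, from all libraries (left) and without flox replicate 3 and siNC replicate 3 (right), large subunit in blue and small subunit in red. With all libraries 72 members lie below 0 on both axes, and 60 do without the 2 control libraries.

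Between the systems, 72 of 76 members were lower in both with all libraries and 60 of 76 without the third control library of each. The share of all genes lower in both was not counted. It was 50% in the mouse and 49.7% in the rat taken singly, with all libraries. Of the cytosolic ribosomal proteins, 76 of 77 in the mouse and 72 of 72 in the rat were below 0 with all libraries. Without the third controls 3 of 77 and 69 of 72 were. The difference of the 2 responses was tested gene by gene in 1 edgeR model of all 12 libraries. With all libraries no member differed at an adjusted p under 0.05, against 1.68% of 13482 genes, and 2 members did at an unadjusted p under 0.05, against 15.7%. The smallest p was that of Mrps31, with a difference of -1.29 (mouse minus rat, log2 scale, SE 0.47, edgeR adjusted p = 0.201), followed by Mrpl51 with -1.95 (SE 0.77, adjusted p = 0.245). Mrpl51, a mitochondria-specific protein, was at 113, 119.1 and 575.7 CPM in flox, 63.1, 119.5 and 67.75 CPM in cKO, 35.4, 29.31 and 22.37 CPM with siNC, and 34.24, 36.1 and 35.33 CPM in the libraries labelled siJmjd4. It was highest in flox replicate 3 and lowest in siNC replicate 3.

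Without both control libraries 1 member differed between the systems, Mrpl39, against 12.8% of all genes. In the rat it was at 12.67, 10.28 and 23.84 CPM with siNC and the libraries labelled siJmjd4 had 12.54, 12.22 and 11.59 CPM, so the first 2 controls lay on both sides of the treated libraries. The difference was -0.91 (SE 0.20, edgeR adjusted p = 0.0190), made of -0.83 in the mouse and 0.08 in the rat. Among the members called lower in the smallest sets of libraries, without 2 in each system, 10 were shared, which is 24.4% of the 41 mouse calls and 58.8% of the 17 rat calls. Mrpl1, Mrpl11, Mrpl12, Mrpl28, Mrpl37, Mrpl38, Mrps5, Mrps27, Mrps30 and Mrps35 were these 10. As 53.2% of all mouse members were called in that fit, 58.8% of the rat calls is near the share of members in general.

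Levels spanned a wide range among the members. Per kilobase of transcript, Mrpl42 was the highest in flox (651 ± 721 CPM per kb, SD, n = 3), before Mrps21 (407 ± 462), Mrpl30 (341 ± 367) and Mrpl33 (295 ± 330). The SDs come from hearts that these genes share, so they do not measure differences between genes, which were not tested. Flox replicate 3 carried these means, and without it the same order held at 235, 141, 129 and 105 CPM per kb. In cKO the first was Mrpl33, at 166 CPM per kb, then Mrpl42 at 130 and Mrps21 at 123. The lowest per kilobase in flox were Mrpl19 and Mrpl17, at 6.8 ± 2.64 and 6.29 ± 3.41 CPM per kb. Their place depends on the length used, a median over selected annotated transcripts. Per kilobase of coding sequence Mrpl42 was still first, but Mrpl17 ranked 45 and Mrpl19 ranked 72 of 77. In the NRVCs Mrpl52, Mrpl54 and Mrps21 led with 241 ± 125, 166 ± 105 and 143 ± 89.6 CPM per kb with siNC (169, 106 and 91.6 without siNC replicate 3, in the same order). Mrpl1 was the lowest at 1.6 ± 0.724. In the libraries labelled siJmjd4 Mrpl52, Mrpl54 and Mrps21 kept their order, at 145, 91.1 and 75.8 CPM per kb.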

How the data were processed

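RNA from 12 libraries in 4 groups of 3 was analysed, from mouse heart apex and rat NRVCs. For each system the authors deposited a table with a whole-number count for each symbol and library, without normalization. The submitters' processing notes list HISAT2 2.1.0, edgeR 3.20.9 and StringTie 1.3.4, and as builds rn6 and mm10, without saying which step used which. Annotation, strand setting and rules of counting: not given in the sources used here.

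Each system was fitted on its own 6 libraries over all genes that passed edgeR's filterByExpr, with TMM scaling and a robust quasi-likelihood model with group as the only term (edgeR 4.0.16, R 4.3.3). A gene was called at a two-sided Benjamini-Hochberg adjusted p under 0.05. CPM use TMM-scaled sizes. Standard errors were derived from the F statistic. Summed CPM have no error beyond the spread of the libraries. No 2 libraries were copies of each other, as chi-square over degrees of freedom between replicates ran from 26.6 to 1700.

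The members and the gene lists were chosen with earlier results of these data known. Genes are named by rule, and not every gene the rule yields is printed: the smallest p, extreme fold changes and highest levels per kilobase in each subunit and system, the members failing the filter, the smallest p for the difference between systems and up to 3 genes of each list. Ptcd3, Mrm1, Mt-rnr1, Mrpl9 and members of short lists or counts were added after their values were seen.

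Lengths and positions come from GENCODE M21 (GRCm38, the assembly that mm10 names). A length was had for 80% of tested mouse and 84% of tested rat genes. It was the median over a gene's best class of transcripts, ranked by protein coding, then APPRIS principal level, then the basic set. Rat coordinates were not used here. The NRF1 and YY1 letters were shortened after longer forms, which gave fewer matches, had been searched. Alternatives were other scalings and filters, DESeq2's Wald test (1.42.0), limma voom with sample weights (3.58.1), the replicate number as a block, an offset smoothed on transcript length (span 0.3) and left-out libraries. The code was tested on simulated data.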

Additional observations from a re-analysis of the deposited data

Results flagged for a closer look

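Mrpl39 was the one member whose response differed between the mouse and the rat when flox replicate 3 and siNC replicate 3 were left out, with a difference of -0.91 (mouse minus rat, log2 scale, adjusted p = 0.0190 in edgeR's quasi-likelihood test over both systems). Of all genes 12.8% differed in that fit. With all 12 libraries the difference was -0.85 (SE 0.49, edgeR adjusted p = 0.434).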

How the results depend on the processing

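No member was called in either system with DESeq2's size factors, totals alone, both filters, or the replicate block. Deviations of same-numbered libraries from their group means had correlations of 0.36, -0.48 and -0.33 in the mouse and -0.14, -0.02 and -0.15 in the rat. These values cannot show whether such libraries shared an isolation or batch, since single libraries also stood apart by transcript length. The labels do not tie the numbers across groups. With the replicate block the medians were -0.92 (mouse) and -0.48 (rat), with 0 members called. In the mouse, members called lower numbered 4 by DESeq2's Wald test (5.19%, against 4.38% of all genes) and 4 with the length correction (5.19%, against 2.99%). They were 19 by voom (24.7%, against 9.32%) and 41 without flox replicate 3 and cKO replicate 2 (53.2%, against 9.53%). When 1 library was left out they were 0 to 2, the 2 without flox replicate 3 (2.6%, against 2.93%). With 1 left out the medians ran from -1.45 to -0.30 (all), -1.54 to -0.36 (large) and -1.35 to -0.19 (small), the highest without flox replicate 3. Totals alone gave -0.30, -0.36 and -0.15, and scaling to the members' sum, added after seeing the data, 0.05, -0.02 and 0.19. The lists other than cell markers held 6, 14, 20, 21, 14, 13, 2, 9 and 77 tested mouse genes. Genes called over them were 14 without flox replicate 3 (11 lower, 3 higher), where 2.93% of all genes were called lower and 4.26% higher. With the length correction they were 16, all lower, where 2.99% of all genes were called lower and 3.51% higher. In the rat, the median was -0.17 (small -0.14) with the length correction, -0.69 to -0.20 with 1 library left out, and 0.02 (large 0.02, small -0.02) with the members' sum. There, voom called 2 (2.6%, against 1.12% of all genes). The fit without siNC replicate 3 and siJmjd4 replicate 1 called 17 (22.1%, against 5.18%). The test between systems called 1 member without the third controls, against 12.8% of all genes.

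Signs turned for single members, and the cause was not tested. Totals alone gave Mrpl10 0.19, Mrpl16 0.11, Mrpl33 0.24, Mrps26 0.25 and Mrps18a 0.25. Mrpl33 was at 0.26 with the length correction, 0.35 by voom, 0.25 without 2 hearts and 0.67 without flox replicate 3, where Mrps18a was at 0.14. With 1 heart left out Mrpl33 ran from -1.23 to 0.67 and Mrps18a from -1.01 to 0.14. The members' sum gave Mrpl10 0.49, Mrpl16 0.43, Mrpl33 0.68, Mrps26 0.52, Mrps18a 0.55 and Mrpl49 0.12 in the mouse, and Mrpl48 0.01 and Mrps36 0.08 in the rat. Rat Mrps36 was at 0.09 with the length correction. Rat Mrpl49 and Mrps31 were at -0.08 and -0.07 by voom, -0.11 and -0.10 without 2 libraries, and -0.07 and -0.09 without siNC replicate 3.

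Groups of 3 limit the precision, and fits with 2 libraries a group rest on a spread estimated from fewer samples.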
